A study of Mus musculus with 6 samples.

Results

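The genes described here are those of the lysosome and of the vacuolar proton pump, measured by RNA sequencing of mouse hippocampus. They were chosen by a rule on gene names, with earlier results of these data known. The rule took 24 genes whose symbols start with Atp6v or Atp6ap, and 30 named lysosomal genes. That makes 54 of the 33385 genes in the deposited table. By role they are 12 genes of the cytosolic V1 sector of the pump, 9 of its membrane V0 sector, 3 accessory genes, 10 cathepsins, 7 glycan-degrading enzymes, 5 genes of lipid breakdown, 5 membrane proteins, and the 3 genes Tfeb, Grn and Tpp1. The V0 genes include the processed pseudogene Atp6v0c-ps2, which the name rule took in.

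The vacuolar proton pump is a rotary machine that spends ATP to move protons into lysosomes, endosomes and, in neurons, synaptic vesicles, where the proton gradient drives transmitter loading. Its V1 sector splits ATP in the cytosol and its V0 sector carries protons across the membrane. Lysosomal hydrolases work in the acid that the pump makes, and loss of single hydrolases causes storage diseases in which neurons are among the cells most affected. The transcription factor TFEB activates many lysosomal and pump genes through a short E-box element in their promoters.

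The knockdown group (n = 3) was Bcas2F/F mice that received AAV2/9-Syn-cre, a virus with Cre recombinase behind a synapsin promoter, which works in neurons. The control group (n = 3) was Bcas2F/F mice that received AAV-vehicle; the labels also give this group the genotype WT. Both groups thus carry the floxed Bcas2 gene, whose product belongs to a spliceosome complex, and whole hippocampus was sequenced, so cells that the synapsin promoter does not reach contribute to every value. The labels give no age or sex and do not say whether each library is a separate animal, so a p-value here sets a difference against the spread among 3 libraries a group, part of which may be technical.

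Counts per library summed to 63788474, 60049265 and 55914768 in knockdown replicates 1 to 3, and to 76481458, 60037229 and 58042064 in control replicates 1 to 3. Bcas2 averaged 9.04 ± 0.151 FPKM with AAV2/9-Syn-cre and 9.68 ± 0.216 FPKM with AAV-vehicle (SD, n = 3 each), where FPKM are fragments scaled by transcript length and library size. Its log2 fold change was -0.07, with a 95% interval of -0.23 to 0.08 and an adjusted p of 0.861 (edgeR quasi-likelihood test), so the targeted transcript was lower in each knockdown library but did not pass the test. Control replicate 3 stood apart in markers of choroid plexus, a tissue that borders the hippocampus: 12 of 12 were highest there, and their summed level was 26.6, 34.1 and 28.7 FPKM in the knockdown libraries and 54.8, 41.9 and 4945 FPKM in the control libraries. Summed oligodendrocyte markers, with 10 of 10 found and none at 0 in all libraries, spanned 685 to 703 FPKM among knockdown libraries and 832 to 1300 FPKM among control libraries. Summed microglial markers (10 of 11 found) spanned 40.8 to 70.6 FPKM among knockdown libraries and 61.9 to 69.7 FPKM among control libraries. Summed neuronal markers (10 of 10 found) spanned 1426 to 1505 FPKM among knockdown libraries and 1345 to 1490 FPKM among control libraries. Y-linked genes had no counts in the knockdown libraries or in control replicate 1, and 10430 and 10594 counts in control replicates 2 and 3. Xist had 49.5, 58.6 and 46.8 FPKM in the knockdown libraries and 43.9, 0.0014 and 0.0213 FPKM in the control libraries. By these transcripts control replicates 2 and 3 look male and the other libraries female, so the control group is mixed and sex is not balanced between the groups. The part of these differences in the results below was not tested unless a value without the library is given.

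The genes were well covered. Of the 54, 35 had a mean of at least 10 FPKM and 17 a mean of at least 50 FPKM, and together they took 0.908%, 0.949% and 0.918% of all counts in the knockdown libraries and 0.881%, 0.938% and 0.944% in the control libraries. Only 4 had a mean under 1 FPKM: Atp6v0a4, Atp6v1b1, Atp6v1c2 and Atp6v1e2. Of these, Atp6v1b1 and Atp6v1e2 were under the count filter, which left 52 for the test.

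No member of the pump or the lysosome passed the test: 0 of the 52 had an adjusted edgeR p below 0.05, where 0.0% of the 20946 genes tested did. DESeq2 called 0.486% of the genes it gave an adjusted p, and 0 of 51 members. At an unadjusted edgeR p below 0.05 there were 2 members of 52 (3.85%), Gaa on the higher side and Atp6v0a2 on the lower, against 6.19% of all genes, and DESeq2 had 4 of 52 (7.69%) against 7.18% of all genes. This edgeR count moved with single libraries. It was 12 of 53 members without control replicate 2 (8.64% of all genes), 3 of 53 without control replicate 1 (4.74%) and 0 of 53 without control replicate 3 (4.26%). It was 5 of 52 without knockdown replicate 1 (6.59%), 0 of 53 without knockdown replicate 2 (4.49%) and 0 of 52 without knockdown replicate 3 (4.72%). In the 4 libraries without Y-linked counts it was 6 of 53 (5.33%), and limma on log2(FPKM + 1) had 4 of 51 (6.91%). The adjusted count of members was 0 in each of those fits, also without control replicate 1, where 0.0276% of all genes passed. Positive log2 fold changes, meaning a higher level in the knockdown group, were found for 20 of the 52 members (38.5%), against 49.9% of all genes. The pump genes and the lysosomal genes proper lay on different sides: 13 of 22 pump genes were above 0, with a median log2 fold change of 0.04, and 7 of 30 lysosomal genes, with a median of -0.15, where the median of all genes was -0.0005. In bulk tissue, fewer cells of a type and less RNA per cell cannot be told apart in any of these values.

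**Figure D1:**
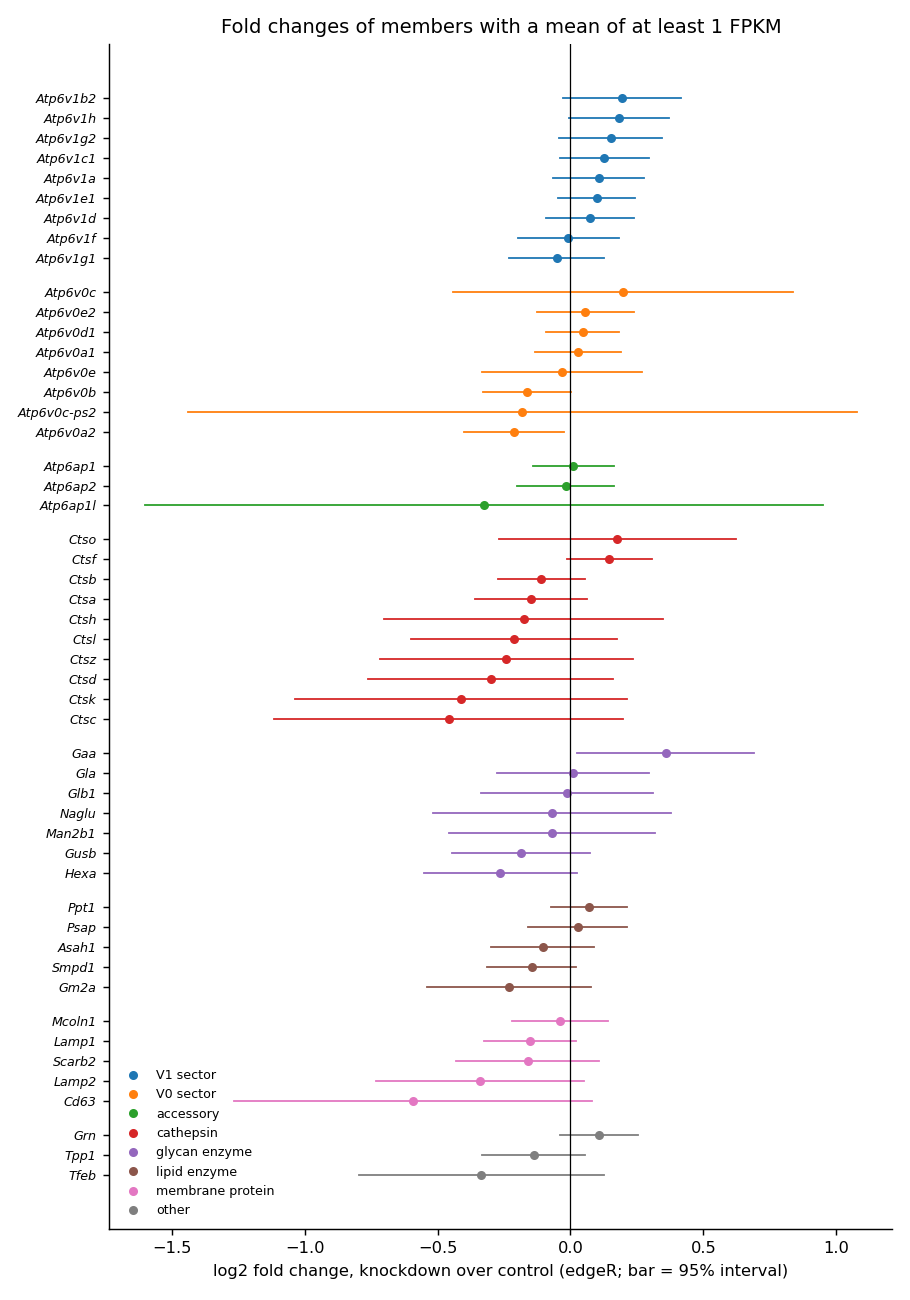
Log2 fold changes of knockdown over control from edgeR for the 50 tested genes that averaged 1 FPKM or more, grouped by role, with 95% intervals (n = 3 libraries each). All intervals include 0 except that of Gaa, which lies above it, and that of Atp6v0a2, which lies below it; neither gene passed the adjustment over all genes.

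The V1 sector is the motor that splits ATP, and 8 of its 10 tested genes had log2 fold changes above 0, with a median of 0.12. Of its catalytic head, Atp6v1a, the subunit that binds and splits ATP, had 93.0, 106 and 98.9 FPKM in the knockdown libraries and 91.8, 97.0 and 92.3 FPKM in the control libraries. The groups overlapped, and the log2 fold change was 0.11, with an interval from -0.07 to 0.28 (adjusted p = 0.833). Atp6v1b2, the brain form of the partner subunit of the head, had 120, 127 and 123 FPKM in the knockdown libraries and 107, 124 and 98.6 FPKM in the control libraries. That gave 124 ± 3.49 FPKM against 110 ± 12.9 FPKM and a log2 difference of 0.19 with an SE of 0.0947 (adjusted p = 0.798). Control replicate 2 lay inside the knockdown range, and the log2 fold change was 0.29 without it and 0.12 without control replicate 3. Atp6v1b1, the form known from acid-secreting kidney cells, reached at most 0.098 FPKM in the knockdown libraries and 0.0273 FPKM in the control libraries, so B2 made up nearly the whole position.

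The stalks of V1 hold the head in place and carry its rotation to the membrane. Atp6v1g2, the brain form of a peripheral stalk subunit, was the most abundant V1 transcript, at 157, 187 and 167 FPKM in the knockdown libraries and 157, 158 and 153 FPKM in the control libraries. Its log2 fold change was 0.15 (SE 0.0825, 95% interval -0.04 to 0.34, adjusted p = 0.806), and the level of knockdown replicate 1 fell within the control range. The gene overlaps Nfkbil1 on the opposite strand over 2133 bases, and the strand setting of the counting is not given in the sources used here. Atp6v1h, a subunit that regulates the coupling of ATP splitting to transport, had the smallest unadjusted p of the V1 genes. It had 15.2, 16.3 and 14.4 FPKM in the knockdown libraries and 13.1, 15.0 and 13.1 FPKM in the control libraries, a log2 fold change of 0.18 (SE 0.0803, unadjusted p = 0.0575, adjusted p = 0.792, edgeR). The 2 groups overlapped through control replicate 2. Atp6v1c1, which joins the stalks to V0, had a log2 fold change of 0.13, Atp6v1e1, another stalk subunit, 0.10, and Atp6v1d of the central rotor 0.07. Atp6v1f of the rotor was at -0.01 and Atp6v1g1, the widely expressed form of G, at -0.05. Of the rare paralogues, Atp6v1c2 had 0.52 to 1.73 FPKM in the knockdown libraries and 0.586 to 0.97 FPKM in the control libraries, and Atp6v1e2 had 0.0508 FPKM in 1 knockdown library and was listed at 0 in the other libraries.

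**Figure D2:**
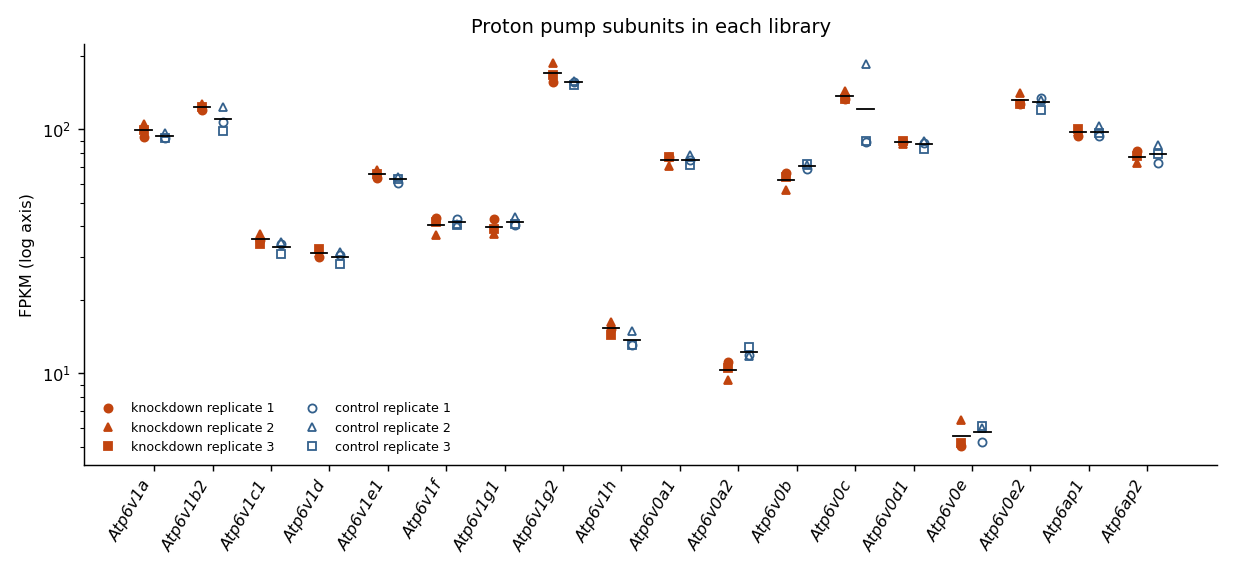
FPKM on a log axis of 18 pump genes in each library, with the knockdown libraries filled at the left of each pair, the control libraries open at the right, and a line at each group's mean. The levels run from about 5 FPKM for Atp6v0e to above 150 FPKM for Atp6v1g2, and Atp6v0c is the gene whose control libraries lie farthest apart.

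Across libraries the V1 genes did not keep a fixed order between the groups. Knockdown replicate 2 was the highest library for 6 of the 10 tested V1 genes, and control replicate 3 the lowest for 5 of 10. The median of the pump genes' log2 levels, each centred on its mean over the 6 libraries, was 0.03, 0.08 and 0.05 in the knockdown libraries and -0.05, 0.04 and -0.07 in the control libraries. On this scale control replicate 2 stood within the knockdown range and the other control libraries below it. Without control replicate 3 the median log2 fold change of the V1 genes was 0.10.

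The V0 sector holds the proton channel: a ring of c subunits turns against subunit a, which lets protons in and out of it. Its 9 genes, counting the pseudogene Atp6v0c-ps2, were split, with 4 log2 fold changes above 0, 5 below, and a median of -0.03. With the pseudogene's counts added to those of Atp6v0c, 4 were above 0 and 4 below, with a median of -0.0026. The most distinct was Atp6v0a2 (ENSMUSG00000038023, GRCm39 chr5:124766641-124801519, plus strand), the form of subunit a known from the Golgi and endosomes. It had 11.2, 9.37 and 10.5 FPKM in the knockdown libraries and 11.9, 11.8 and 12.9 FPKM in the control libraries. Every knockdown library was below every control library. The log2 fold change was -0.21 (SE 0.0799, 95% interval -0.40 to -0.02, unadjusted p = 0.0315, adjusted p = 0.792, edgeR), and it ranged from -0.27 to -0.15 when single libraries were left out. The exact permutation p, two-sided, was 0.1, and 3 against 3 libraries allow no smaller one. Groups that did not overlap were found for 10 of the 52 members (19.2%), against 13% of all genes. Of these 10, 9 were lower in the knockdown group (7.5% of all genes were) and 1 was higher (5.47%).

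Atp6v0b, the subunit of the ring that occurs once, was another of the genes without overlap, at 66.1, 56.6 and 63.6 FPKM in the knockdown libraries and 68.6, 71.2 and 72.3 FPKM in the control libraries. Its log2 fold change was -0.16 (SE 0.071, unadjusted p = 0.0537, adjusted p = 0.792, edgeR). Apart from the ring subunit c, described next, the remaining V0 genes at a level of 1 FPKM or more had log2 fold changes from -0.03 to 0.06. Atp6v0a1, the neuronal form of subunit a, had 77.0, 71.1 and 77.1 FPKM in the knockdown libraries and 74.6, 78.2 and 71.6 FPKM in the control libraries, a log2 fold change of 0.03 (95% interval -0.13 to 0.19). Atp6v0d1, which links the ring to the rotor, was at 0.05 (95% interval -0.09 to 0.18). The small membrane subunits Atp6v0e and Atp6v0e2 were at -0.03 and 0.06, with Atp6v0e2 by far the more abundant, at 128, 140 and 128 FPKM in the knockdown libraries and 135, 132 and 120 FPKM in the control libraries. Atp6v0a4, the kidney form of subunit a, stayed at or below 0.0724 FPKM in the knockdown libraries and 0.101 FPKM in the control libraries.

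The ring subunit c is encoded by Atp6v0c (ENSMUSG00000024121, GRCm39 chr17:24382840-24388676, minus strand). Its coding sequence is nearly identical to the pseudogene Atp6v0c-ps2 (ENSMUSG00000080242, GRCm39 chr6:37783021-37783485, plus strand), which the name rule also took in. The rest of the Atp6v0c transcript was not compared. How reads were assigned between these rows was not tested, and both rows are given. In the GENCODE M21 transcripts of GRCm38, the coding sequence of Atp6v0c is 468 bases long and the pseudogene 465 bases, with 99.8% identity and 1 differing base, T111C, counted from 1 at the A of the start codon with the base of Atp6v0c first. The longest identical run was 354 bases, longer than a read of these libraries. Bases 1 to 120 of the coding sequence and its pseudogene are shown 5′ to 3′ with the differing base in capitals, since this base is what can assign a read from this stretch to either locus.
Atp6v0c: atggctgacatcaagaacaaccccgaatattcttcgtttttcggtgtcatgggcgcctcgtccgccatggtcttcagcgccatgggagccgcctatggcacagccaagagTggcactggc
Atp6v0c-ps2: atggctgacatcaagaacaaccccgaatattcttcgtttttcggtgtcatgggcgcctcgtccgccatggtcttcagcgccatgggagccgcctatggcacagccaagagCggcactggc

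The share of the pair's counts that the deposited table gives to the pseudogene differed between control libraries far more than between knockdown libraries. It was 23.6%, 22.2% and 22.8% in the knockdown libraries and 41.9%, 5.86% and 41.7% in the control libraries. Control replicate 2 was thus far below, and control replicates 1 and 3 far above, a narrow knockdown range. The counts of Atp6v0c followed the other way: 30984, 31553 and 27063 in the knockdown libraries and 24769, 40231 and 18995 in the control libraries. With all libraries the log2 fold change of Atp6v0c was 0.20 (95% interval -0.44 to 0.84, adjusted p = 0.911, edgeR) and that of the pseudogene -0.18 (95% interval -1.44 to 1.08, adjusted p = 0.961). Without control replicate 2 they were 0.64 and -0.64, with adjusted p of 0.230 and 0.111, the smallest adjusted p of any member in any fit. Without control replicate 1 they were 0.02 and 0.13, and without control replicate 3 they were 0.02 and 0.11, so the sign of the pseudogene turned and the value of Atp6v0c was near 0.

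The sum of both rows was steadier. In CPM, counts scaled to the library total, it was 635.6, 675.8 and 626.6 in the knockdown libraries and 557.4, 711.8 and 561.2 in the control libraries, which is 646 ± 26.2 against 610.1 ± 88.1 (SD, n = 3 each). The log2 fold change of the sum was 0.10 (SE 0.108, adjusted p = 0.884, edgeR). Control replicate 2 lay above and the other control libraries below all knockdown libraries, as in the row of Atp6v0c alone.

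**Figure D3:**
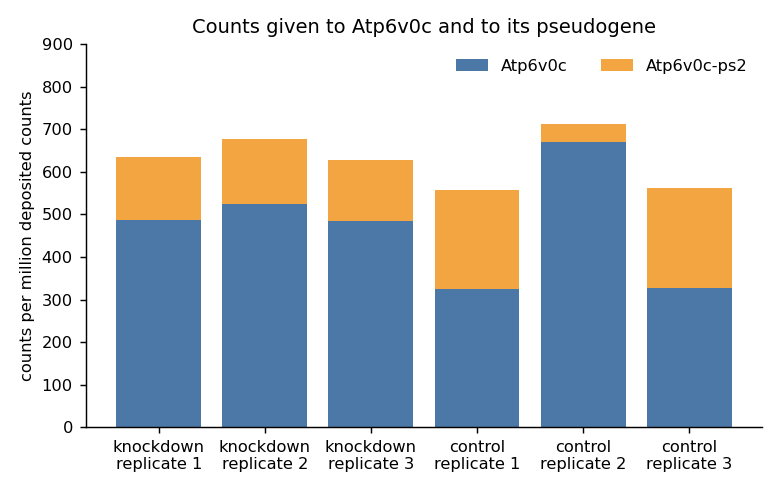
CPM assigned to Atp6v0c and to its pseudogene Atp6v0c-ps2, stacked for each library, knockdown libraries first. The pseudogene's part is 142.6 to 150.3 in the knockdown libraries and 233.6, 41.7 and 234.0 in the control libraries.

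Where a position of the pump can be filled by several paralogues, the share of each in the position's summed FPKM does not depend on library depth. Subunit a is the position with the most paralogues under the name rule. The neuronal a1 made up 87.3%, 88.3% and 87.9% of it in the knockdown libraries and 86.2%, 86.9% and 84.7% in the control libraries, without overlap. That is 87.8 ± 0.478% against 85.9 ± 1.14%, 1.94 percentage points more (exact two-sided permutation p = 0.1, 0.4 after adjustment over 8 shares). The share of a2 was 12.1 ± 0.518% in the knockdown group and 14.0 ± 1.09% in the control group, the mirror of a1. The a3 subunit, made from Tcirg1 and best known from osteoclasts, is outside the name rule and is not in these shares. It had 3.25, 3.02 and 3.23 FPKM in the knockdown libraries and 4.49, 3.34 and 4.21 FPKM in the control libraries, a log2 fold change of -0.32 (unadjusted p = 0.0494, adjusted p = 0.792, edgeR), also without overlap. At the G position the brain form G2 held 78.5%, 83.4% and 81.0% in the knockdown libraries and 79.4%, 78.4% and 78.8% in the control libraries (exact permutation p = 0.3, adjusted 0.8), with overlap. B2, C1, E1 and e2 held 95% or more of their positions in the mean of each group, and none of their shares had an exact permutation p below 0.5.

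The accessory proteins help build the pump in the endoplasmic reticulum. Both main genes are X-linked, and control replicates 2 and 3 hold Y-linked counts while the other libraries do not. The log2 fold change of Atp6ap1 was 0.05 in the 4 libraries without Y-linked counts and 0.06 with a term for them. That of Atp6ap2 was 0.09 in both fits, against -0.02 with all 6 libraries. The cause of these moves was not tested. Atp6ap1 had 93.7, 97.1 and 100.5 FPKM in the knockdown libraries and 94.3, 103 and 96.8 FPKM in the control libraries (log2 fold change 0.01, adjusted p = 0.982, edgeR). Atp6ap2, also known as the prorenin receptor, had 81.2, 72.6 and 77.5 FPKM in the knockdown libraries and 73.1, 86.1 and 79.0 FPKM in the control libraries, a log2 fold change of -0.02 (95% interval -0.20 to 0.16). For both genes the groups overlapped throughout. Atp6ap1l, a paralogue of Atp6ap1, was weak and scattered, from 0.445 to 2.08 FPKM among knockdown libraries and from 1.28 to 2.66 FPKM among control libraries, and its interval ran from -1.60 to 0.95.

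Cathepsins are the lysosome's proteases, and 8 of the 10 measured here had log2 fold changes below 0, with a median of -0.19. Control replicate 3 was the highest library for 8 of the 10, whereas it was the highest for 21.0% of all genes. Without it the cathepsins' median was -0.01, with 4 above 0 and 6 below. Ctsd, the main aspartic protease of the lysosome (ENSMUSG00000007891, GRCm39 chr7:141929648-141941775, minus strand), was the most abundant. It had 108, 118 and 110 FPKM in the knockdown libraries and 117, 112 and 192 FPKM in the control libraries. Leaving control replicate 3 aside, the other control libraries lay within the knockdown range. The log2 fold change was -0.30 (SE 0.197, adjusted p = 0.830, edgeR) with all libraries and -0.01 without that library.

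Several cysteine proteases had the same single high library. Ctsz had 15.1, 14.5 and 13.8 FPKM in the knockdown libraries and 15.5, 13.1 and 23.5 FPKM in the control libraries, with log2 fold changes of -0.24 and, without control replicate 3, 0.03. Ctsl had 9.43, 10.2 and 8.74 FPKM in the knockdown libraries and 8.58, 10.8 and 14.0 FPKM in the control libraries, with log2 fold changes of -0.21 and -0.01. Ctsc, which activates proteases of immune cells by trimming them, had 1.33, 1.88 and 1.80 FPKM in the knockdown libraries and 2.09, 1.59 and 3.33 FPKM in the control libraries, with log2 fold changes of -0.46 and -0.12. In all 3 of these genes the knockdown libraries overlapped the other control libraries.

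Ctsb, the second most abundant cathepsin, had 65.4, 64.0 and 68.0 FPKM in the knockdown libraries and 68.8, 70.2 and 77.5 FPKM in the control libraries, without overlap. Its log2 fold change was -0.11 (adjusted p = 0.826, edgeR) and -0.06 without control replicate 3. Ctsf was on the other side, at 12.6, 12.7 and 11.9 FPKM in the knockdown libraries and 10.7, 11.99 and 11.5 FPKM in the control libraries. It had the smallest unadjusted p of the cathepsins, 0.0694, and an adjusted p of 0.796; the log2 fold change was 0.15, with an SE of 0.0686, and also 0.15 without control replicate 3. Knockdown replicate 3 lay just below control replicate 2. Ctsa, the protective protein of the galactosidase complex, was at -0.15, Ctsk at -0.41 with no library above 1.98 FPKM, Ctsh at -0.18 and Ctso at 0.18.

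**Figure D4:**
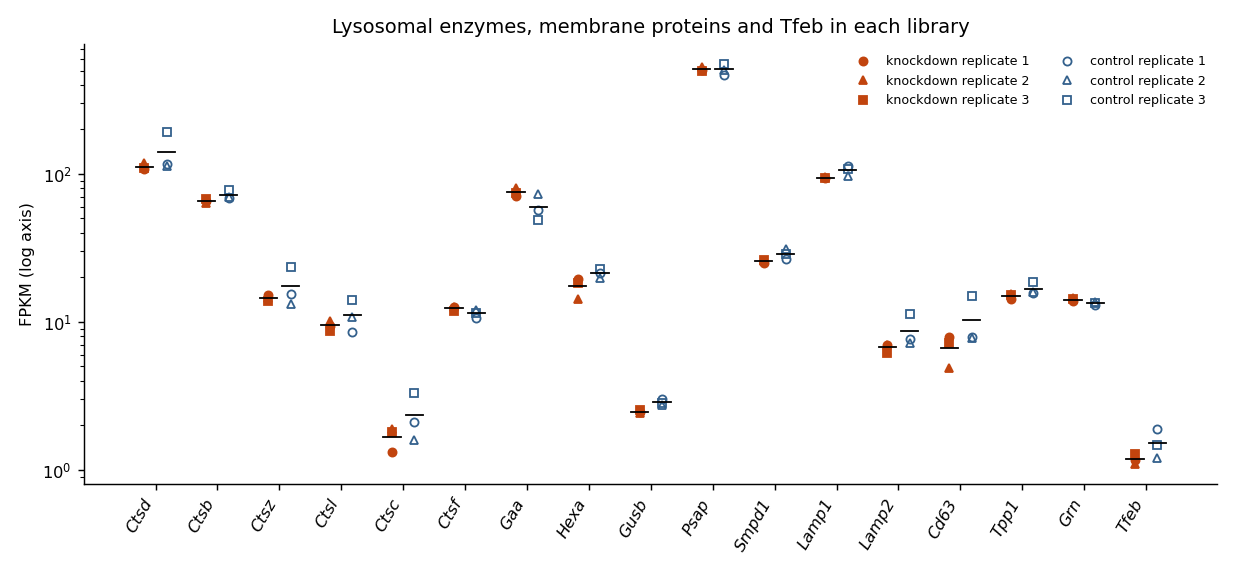
FPKM on a log axis of 17 lysosomal genes in each library, with the knockdown libraries filled at the left, the control libraries open at the right, and a line at each group's mean. Control replicate 3 (open square) is the top point for Ctsd, Ctsz, Ctsl, Ctsc, Lamp2 and Cd63, while Gaa has 2 of its 3 control libraries below all knockdown libraries.

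Of the 7 enzymes that break down glycans, 2 were above 0 and 5 below, with a median of -0.07 that was 0.09 without control replicate 3. Gaa, the acid alpha-glucosidase that degrades glycogen in lysosomes (ENSMUSG00000025579, GRCm39 chr11:119158713-119176280, plus strand), had the highest level and the smallest p of the class. It had 70.6, 79.8 and 74.6 FPKM in the knockdown libraries and 56.7, 72.8 and 49.1 FPKM in the control libraries. Control replicate 2 lay within the knockdown range and the other control libraries clearly below it. The means were 75.0 ± 4.61 and 59.5 ± 12.1 FPKM, and the log2 fold change was 0.36 (SE 0.142, 95% interval 0.03 to 0.69, unadjusted p = 0.0379, adjusted p = 0.792, edgeR). It was 0.53 without control replicate 2 and 0.23 without control replicate 3, and the lowest adjusted p in any alternative fit was 0.394.

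Hexa, the alpha subunit of the hexosaminidase that cleaves the ganglioside GM2, had 19.5, 14.3 and 18.4 FPKM in the knockdown libraries and 21.4, 19.7 and 22.6 FPKM in the control libraries. The groups did not overlap, but the value rested in part on knockdown replicate 2: the log2 fold change was -0.26 (SE 0.123, unadjusted p = 0.0671, adjusted p = 0.792, edgeR) with it and -0.15 without. Gusb, the beta-glucuronidase, had 2.47, 2.42 and 2.53 FPKM in the knockdown libraries and 3.00, 2.76 and 2.82 FPKM in the control libraries, a log2 fold change of -0.19 (adjusted p = 0.819). These are narrow groups without overlap at a low level. Man2b1, the lysosomal alpha-mannosidase, and Naglu, an enzyme of heparan sulfate breakdown, were both at -0.07 with all libraries and at 0.12 without control replicate 3. The galactosidases Glb1 and Gla were at -0.01 and 0.01.

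Among genes of lipid breakdown, Psap encodes the precursor of the saposins, small proteins that present sphingolipids to their hydrolases, and it was the most abundant gene of all 54. It had 501, 528 and 500 FPKM in the knockdown libraries and 468, 505 and 553 FPKM in the control libraries, or 510 ± 16.1 against 509 ± 43.1 FPKM. Control replicate 3 was the highest and control replicate 1 the lowest library, with the knockdown libraries between them, and the log2 fold change was 0.03, with an interval from -0.16 to 0.21 (adjusted p = 0.961, edgeR). Smpd1, the acid sphingomyelinase, had 25.1, 25.9 and 26.1 FPKM in the knockdown libraries and 26.7, 31.2 and 29.0 FPKM in the control libraries. Its groups did not overlap, with a log2 fold change of -0.15 (SE 0.072, unadjusted p = 0.0793, adjusted p = 0.798). Gm2a, the activator that lifts GM2 out of the membrane, was at -0.23 and at -0.10 without control replicate 3. Asah1, the acid ceramidase, was at -0.10, and Ppt1, which removes palmitate from proteins, at 0.07.

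All 5 membrane proteins had log2 fold changes below 0, with a median of -0.16 that was -0.14 without control replicate 3, and all 5 were still below 0 then. Lamp1 (ENSMUSG00000031447, GRCm39 chr8:13209161-13225338, plus strand), a heavily glycosylated protein that lines the lysosome, had 94.1, 95.6 and 93.2 FPKM in the knockdown libraries and 114, 97.5 and 109 FPKM in the control libraries. The knockdown libraries were close together and below all control libraries. The log2 fold change was -0.15 (SE 0.0743, 95% interval -0.33 to 0.02, adjusted p = 0.798, edgeR), ranging from -0.21 to -0.10 when single libraries were left out. Lamp2, its X-linked relative that also serves chaperone-mediated autophagy, had 7.03, 7.03 and 6.18 FPKM in the knockdown libraries and 7.65, 7.17 and 11.3 FPKM in the control libraries. Its groups did not overlap either, and its log2 fold change was -0.34 with all libraries and -0.11 without control replicate 3.

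Cd63, a tetraspanin of late endosomes and exosomes, had the log2 fold change farthest from 0 among the membrane proteins. It had 7.89, 4.86 and 7.25 FPKM in the knockdown libraries and 7.90, 7.79 and 15.0 FPKM in the control libraries. Control replicate 3 was far above and knockdown replicate 2 below the other libraries. The log2 fold change was -0.59 with all libraries, with an interval from -1.27 to 0.08 (adjusted p = 0.798, edgeR), and -0.21 without control replicate 3. Scarb2, the receptor that carries glucocerebrosidase to the lysosome, was at -0.16 with overlap, and Mcoln1, the lysosomal calcium channel TRPML1, at -0.04.

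The weight of control replicate 3 could be set out for all 30 lysosomal genes. It was the highest library for 18 of them. Relative to the mean of the other control libraries, its level had a median ratio of 1.16 over the 30 genes, with 26 above 1, and the ratio was at least 1.5 for 6: Cd63 (1.91), Ctsc (1.81), Ctsd (1.68), Ctsz (1.64), Lamp2 (1.52) and Ctsh (1.51). For the pump genes the median ratio was 0.969. The median of the lysosomal genes' centred log2 levels was -0.06, -0.01 and -0.05 in the knockdown libraries and -0.03, -0.03 and 0.18 in the control libraries, so control replicates 1 and 2 lay within the knockdown range and control replicate 3 above it. Without control replicate 3 the median log2 fold change of the 30 genes was -0.06, with 12 above 0 and 18 below, against -0.15 with 7 above and 23 below. In that fit 51.1% of all genes were above 0. The same library holds the choroid plexus markers, and how far the marker tissue accounts for its lysosomal levels was not tested.

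**Figure D5:**
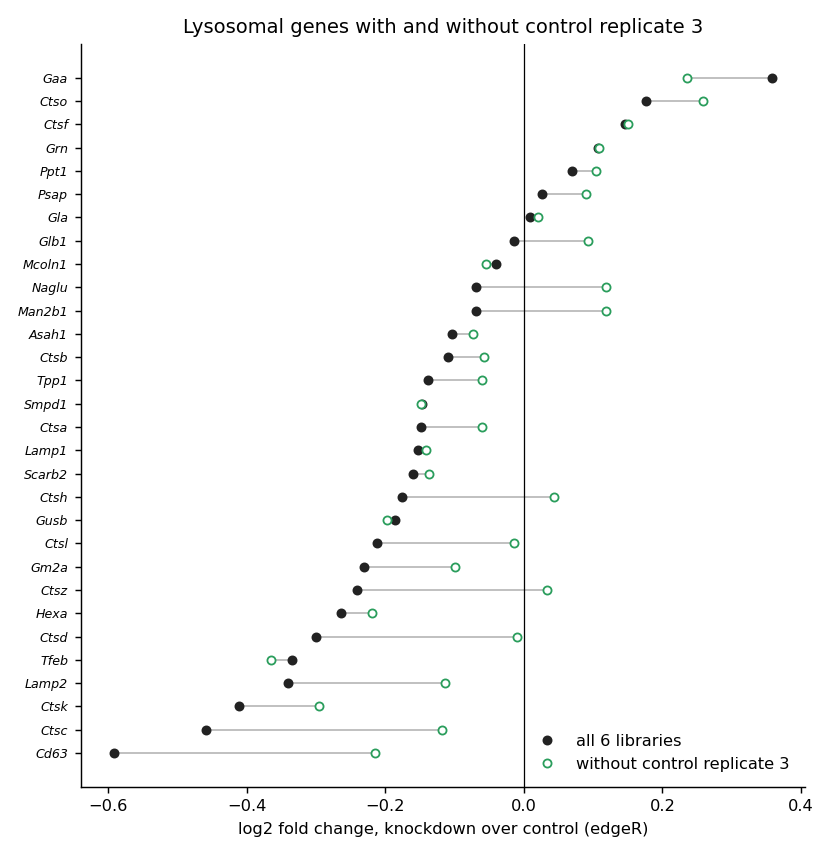
Log2 fold changes of knockdown over control for the 30 lysosomal genes with all 6 libraries (black) and without control replicate 3 (open green). Of the 30, 17 lie nearer 0 without that library and 5 change sign, among them Ctsz and Ctsh; Lamp1 and Gaa stay on their own side.

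The 3 remaining genes have roles of their own. Tfeb (ENSMUSG00000023990, GRCm39 chr17:48047955-48103344, plus strand), the transcription factor of the lysosomal network, had 1.17, 1.09 and 1.29 FPKM in the knockdown libraries and 1.89, 1.20 and 1.47 FPKM in the control libraries. Control replicate 2 lay within the knockdown range. The log2 fold change was -0.33 (SE 0.198, 95% interval -0.80 to 0.13, adjusted p = 0.816, edgeR), -0.14 without control replicate 1 and -0.48 without control replicate 2. It was -0.66 in the 4 libraries without Y-linked counts, and also -0.66 with a term for Y-linked counts. Grn, the gene of progranulin, a growth factor and lysosomal protein, was the member without overlap on the higher side. It had 13.7, 14.4 and 14.2 FPKM in the knockdown libraries and 12.97, 13.6 and 13.4 FPKM in the control libraries, a log2 fold change of 0.11 (adjusted p = 0.816). The gap between its groups was small next to their spread. Tpp1, a peptidase lost in a childhood lipofuscinosis, had 14.2, 15.4 and 15.2 FPKM in the knockdown libraries and 15.7, 16.0 and 18.6 FPKM in the control libraries, with log2 fold changes of -0.14 and, without control replicate 3, -0.06.

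The promoters of these genes were searched for the E-box that TFEB binds, as a feature that the name rule did not use. RefSeq windows from 250 bases before to 50 bases after the start, on GRCm38.p6, were found for 44 of the 54 genes. The motif TCACGTGA, searched on both strands and identical to its own reverse complement, was present in 7 of the 44 (15.9%) and in 1.12% of 27025 genes. Its core CACGTG was present in 14 (31.8%) against 8.09%, and the longer form with a G before and a C after it in 0 against 0.37%; the 3 motifs are nested, so these counts are not separate. The 7 genes with TCACGTGA were Atp6v0d1, Atp6v0e, Atp6v1a, Ctsa, Ctsd, Gla and Mcoln1, which span the pump, a pair of cathepsins, a glycosidase and a channel. The windows of Ctsa and Gla each held 2 copies, and for Gla only the copy nearer the 5′ end is placed and marked below. Windows that lie wholly before the start are shown for 4 of them, 5′ to 3′ on the strand of the gene with the motif in capitals, because they place the same element at different distances in genes of different roles: 99 bases before the start for Ctsd (chr7:142387889-142387956, minus strand), 46 for Mcoln1 (chr8:3500443-3500510, plus strand), 132 for Atp6v1a (chr16:44139354-44139421, minus strand) and 228 for Gla (chrX:134601196-134601255, minus strand).
Ctsd: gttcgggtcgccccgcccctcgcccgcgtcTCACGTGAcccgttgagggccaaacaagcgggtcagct
Mcoln1: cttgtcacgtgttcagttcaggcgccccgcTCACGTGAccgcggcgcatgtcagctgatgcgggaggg
Atp6v1a: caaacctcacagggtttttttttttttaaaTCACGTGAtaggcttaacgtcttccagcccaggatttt
Gla: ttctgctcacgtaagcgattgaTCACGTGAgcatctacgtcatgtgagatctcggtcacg

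The genes with this element did not share a direction. Of the 7, 3 had log2 fold changes above 0 and 4 below, from -0.30 for Ctsd to 0.11 for Atp6v1a, with a median of -0.03, and 0 had an unadjusted edgeR p below 0.05. A match of letters is a description of the window and not evidence of binding.

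Genes of the same pathways outside the name rule were taken from 6 further lists, and none of them held a gene with an adjusted edgeR p below 0.05. In the list of TFEB relatives and nutrient sensing, 1 of 19 tested genes was higher and 1 lower at an unadjusted p below 0.05, where 3.03% and 3.16% of all genes were. Rragb, a Rag GTPase that recruits the mTORC1 kinase to lysosomes, had 36.2, 43.6 and 40.6 FPKM in the knockdown libraries and 31.3, 35.0 and 31.4 FPKM in the control libraries. The groups did not overlap, and the log2 fold change was 0.32 (SE 0.0899, unadjusted p = 0.00806, adjusted p = 0.792). The gene is X-linked like Atp6ap1 and Atp6ap2. Mitf, a relative of Tfeb, was at -0.59, and at -0.35 without control replicate 3.

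Among 26 further hydrolases, 3 were lower and 0 higher at that unadjusted level, with a median of 0.01. Dnase2a, the acid DNase of lysosomes, had 0.765, 1.22 and 0.658 FPKM in the knockdown libraries and 1.80, 1.55 and 1.72 FPKM in the control libraries. It had the log2 fold change farthest from 0 of the genes named here, -0.91 (SE 0.246, unadjusted p = 0.00692, adjusted p = 0.792, edgeR), which was -0.90 without control replicate 3, and an adjusted p of 0.0712 in DESeq2. Of 23 further membrane proteins, 1 was higher and 1 lower. Npc1, the cholesterol exporter, had 5.44, 4.65 and 5.80 FPKM in the knockdown libraries and 7.14, 5.85 and 6.66 FPKM in the control libraries, a log2 fold change of -0.28 without overlap. Clcn7, the lysosomal chloride and proton exchanger, was at 0.15.

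Of 13 tested genes of pump assembly and partners, 2 were lower at the unadjusted level and 0 higher, while 10 had log2 fold changes above 0. The lower ones were Tcirg1, given above, and Rnasek, a small membrane protein of the V0 sector. Rnasek had 17.8, 19.7 and 16.3 FPKM in the knockdown libraries and 30.6, 21.2 and 22.8 FPKM in the control libraries. Its log2 fold change was -0.45 (SE 0.163, unadjusted p = 0.0266, adjusted p = 0.792, edgeR), and -0.51 without control replicate 3. The autophagosome list (27 genes) held 0 higher and 1 lower, Atg12, a conjugation factor of autophagosome growth, at -0.17. The mannose 6-phosphate sorting list (14 genes), which carries hydrolases from the Golgi to the lysosome, held 0 in either direction.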

How the data were processed

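Per the labels' protocols, poly(A) RNA of hippocampus was made into dUTP libraries and sequenced in pairs. Tools given in the submitters' processing notes are HISAT2 2.2.1, StringTie 2.1.6, cutadapt 1.9, edgeR and DESeq2, and the build is GRCm39. The deposited table gives an estimated count, already whole, and the authors' FPKM value, scaled by gene length and library, of every gene in every library, per the file headers.

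Counts were tested with edgeR 4.0.16 in R 4.3.3 (filterByExpr, 20946 genes; TMM factors 0.9895 to 1.017; quasi-likelihood F test; Benjamini-Hochberg over all genes, 0.05). Standard errors come from the fold change and F statistic, and intervals are at 95%. Shares used exact permutation over 20 assignments. Alternatives were DESeq2 1.42.0, RLE factors, no filter, a replicate block, counts divided by 4, a term for Y-linked counts, the 4 libraries without them, single libraries left out, and limma 3.58.1 on log2(FPKM + 1) with a mean of at least 0.5 FPKM, or with 0.1 added, or unfiltered. The summed Atp6v0c pair was added after seeing the data. The scripts were tested on simulated data.

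The members, the pathway and marker lists and the tests were chosen with earlier results of these data known. Named with values in every library were, per role, the highest gene and that with the smallest p, up to 10 genes without overlap, paralogues that set a share, Tfeb, Lamp1 and Atp6ap2; per further list, the 2 with the smallest p, of which 1 is not reported here. Other genes given library by library were chosen after their values were seen. Replicate numbers did not pair libraries: deviations of same-numbered libraries correlated at -0.0117, -0.0523 and -0.0994 across genes. All pairs of libraries differed by more than sampling noise (lowest chi-square per gene 25.08). Promoter and transcript sequences are from RefSeq (GRCm38.p6) and GENCODE M21, with no coordinates carried between builds.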

Additional observations from a re-analysis of the deposited data

How the results depend on the processing

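The count of members with an adjusted p below 0.05 was 0 under every alternative run, with 0.111 the smallest adjusted p. The count at an unadjusted p below 0.05, 2 in the report, was 5 with the replicate block (5.0% of all genes), 6 once both control libraries with Y-linked counts were left out (the single control library left is assumed to vary like the others), 4 with DESeq2, 4 with limma and 0 to 12 with single libraries left out. The replicate block changed no adjusted call of a member. Hexa, Cd63 and Atp6v1h had an unadjusted edgeR p below 0.05 with that block and not in the main fit. The median log2 fold change of all tested members was -0.06, but 0.0277 in those 4 libraries, 0.0266 with a term for Y-linked counts, and -0.0759 to 0.0042 with single libraries left out. For pump genes it was 0.0874, 0.0859 and 0.0197 to 0.0672 in these fits, and for lysosomal genes -0.0498, -0.0464 and -0.1885 to -0.0565. Of 880 member values under alternatives, 64 had the opposite sign, all in 21 members whose median absolute log2 fold change was 0.0696, and 31 members never did. Signs turned for Atp6ap1 with limma (-0.0127, -0.0128 with 0.1 added, -0.0127 unfiltered; leaving out libraries -0.0162 to 0.0451), Atp6ap1l (0.18 without Y-linked libraries and 0.18 with their term; -0.6848 to 0.0911), Atp6ap2 (0.0874 and 0.0909; -0.0703 to 0.0416), Psap (-0.0263 to 0.0891) and Atp6v0c-ps2 (0.13 with the replicate block, 0.16 with each limma variant; -0.64 to 0.13). Lysosomal enzymes below 0 with all libraries turned too, among them Ctsl, Man2b1 and Naglu. Ctsl was at 0.15, Man2b1 at 0.32 and Naglu at 0.20, both without the Y-linked libraries and with their term. Ctsz was at 0.03 without control replicate 3. With single libraries left out, the difference in paralogue share ranged from -0.914 to 0.725 points for Atp6v1c1, -0.035 to 0.0152 for Atp6v0a4 and -0.0387 to 0.0 for Atp6v1e1. The cause of these moves was not tested. With 3 libraries a group, small differences could not be told from the spread, and counts at multiples of 4 leave the number of counted read pairs unknown.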

Other observations

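A second gene and pseudogene pair, looked at after the values of the Atp6v0c pair were seen, had a like division of counts among libraries. Rnps1 (GRCm39 chr17:24633539-24644875, plus strand), a splicing factor, and its pseudogene Rnps1-ps (GRCm39 chr6:7982541-7983383, minus strand) lie on the same chromosomes as Atp6v0c and Atp6v0c-ps2. The pseudogene held 16.9%, 15.2% and 14.8% of the pair's counts in the knockdown libraries and 39.0%, 0.856% and 39.1% in the control libraries. The sum of the pair differed among libraries too. In CPM it was 112.8, 115.4 and 108.2 in the knockdown libraries and 83.9, 132.4 and 81.7 in the control libraries. Rnps1 itself had 16.97, 17.6 and 16.7 FPKM in the knockdown libraries and 9.29, 23.9 and 8.98 FPKM in the control libraries. Control replicate 2 was again the library with the smallest pseudogene share, and the knockdown libraries again lay between it and the other control libraries.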
